A study of Mus musculus with 18 samples.

Results

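A set of 10 genes that mark T cells was followed through a bulk RNA-seq study of the mouse substantia nigra, the midbrain nucleus that holds the dopaminergic neurons lost in Parkinson disease. They are Cd3d, Cd3e, Cd3g, Trbc2, Cd4, Cd8a, Cd8b1, Nkg7, Cxcr6 and Ptprc, taken by symbol from a table of 55270 genes, and all 10 members were found there. The study compared 6 intact mice, for which the labels name no injection, with 6 mice given an adeno-associated virus (AAV) for GFP and 6 given an AAV for SIRT3, a mitochondrial deacetylase. All mice were 3 months old, and the virus had been given about a month before. The promoter and serotype of the viruses are not given in the labels, and injection, virus and transgene cannot be told apart when either AAV group is set against intact mice. Each library was poly-A RNA from 1 mouse, with 47182529 to 64728587 reads assigned to genes. Sirt3 itself, the gene the second virus carries, had 1733 to 1920 normalised reads in intact mice, 1684 to 1936 with AAV-GFP and 1801 to 2041 with AAV-SIRT3, so its ranges overlapped.

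T cells recognise peptide antigens through a T cell receptor whose alpha and beta chains are joined to the CD3 chains, which carry the signal into the cell. CD4 and CD8 are co-receptors that divide helper from cytotoxic T cells, and T cells that enter tissue express homing receptors such as CXCR6. Healthy brain parenchyma holds few T cells, while T cells have been found in the substantia nigra in Parkinson disease and in mouse models of it. The genes are not equally specific. Ptprc encodes CD45, a phosphatase of all nucleated blood cells and of microglia, Cd4 is also transcribed in some macrophages and dendritic cells, and Nkg7 is also a natural killer cell gene.

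T cell transcripts were scarce in all 3 groups. Cd3d, Cd3g, Cd8a, Cd8b1, Nkg7 and Cxcr6 did not reach 10 normalised reads in 6 of the 18 libraries, the level set for the test across genes. Cd3e, Trbc2, Cd4 and Ptprc did. A normalised read is 1 read divided by the size factor of its library, and these factors lay between 0.877 and 1.17, so the values are close to read numbers. Per kilobase of annotated exon, the mean level over the 18 libraries fell from Trbc2 (70.1 normalised reads per kb) through Ptprc (14.2), Cd4 (10.8), Cxcr6 (4.34), Nkg7 (2.88), Cd3e (2.70), Cd3g (1.11), Cd8a (0.910) and Cd3d (0.888) to Cd8b1 (0.703). Between neighbours in that order only Trbc2 and Ptprc had ranges that did not overlap, at 26.4 to 117 and 10.1 to 20.5 per kb.

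The mean of each of the 10 members was higher in AAV-GFP than in intact libraries and higher in AAV-SIRT3 than in intact libraries. Over the 38540 genes with a read, 46.5% and 44.4% had the higher mean in the AAV group in these comparisons. For Cd3d and Cd8b1 the read totals of AAV-GFP and intact were equal, at 8 and 8 and at 2 and 2. Per unit of depth the ratio of these totals was 0.996 for both genes. Cd3d was higher in AAV-GFP than in intact in 11 of 36 pairs of libraries and lower in 17. In AAV-SIRT3 against AAV-GFP 8 of the 10 members had the higher mean, beside 45.3% of all genes. Both comparisons use the same 6 intact libraries. None of the 10 members separated the groups without overlap in any of the 3 comparisons, against 0.999% of all genes for AAV-GFP and intact, 4.78% for AAV-SIRT3 and intact, and 0.454% for AAV-SIRT3 and AAV-GFP. In a bulk sample, fewer cells of a type and less RNA per cell cannot be told apart.

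Of the 4 members that could be tested with limma across 19443 genes, 0 passed an adjusted p of 0.05 in any comparison. The share of all genes past that threshold was 1.84% for AAV-GFP against intact, 21.7% for AAV-SIRT3 against intact and 0.113% for AAV-SIRT3 against AAV-GFP. At an unadjusted p under 0.05, limma gave 1 member, Ptprc, in AAV-GFP against intact (19.1% of all genes), and 0 in AAV-SIRT3 against intact (34.9%) and in AAV-SIRT3 against AAV-GFP (15.2%). edgeR on the recovered reads with the same filter called 0 of the 4 members in each comparison, beside 1.86%, 21% and 0.123% of all genes in the same order. DESeq2 called 1, Ptprc in AAV-GFP against intact, and 0 in the others, beside 5.14%, 23.7% and 1.56%. Fitted without the filter, edgeR called 0, 2 and 0 of the 10 members beside 1.1%, 9.02% and 0.179% of all genes, and limma called 0 in each beside 0.426%, 8.23% and 0.0467%.

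**Figure D1:**
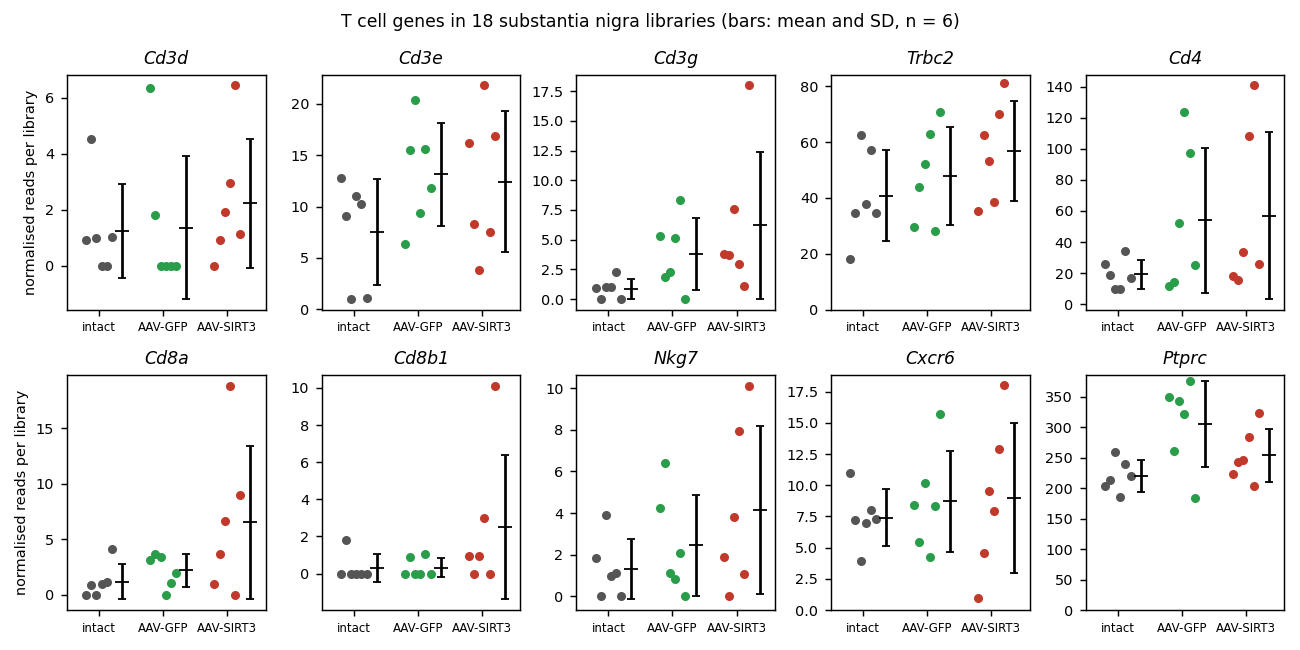
Normalised reads of each of the 10 genes (vertical axis) in the 6 libraries of each group, in the order of the replicate numbers, with the mean and SD beside them. The groups overlap for every gene, and single AAV-SIRT3 libraries stand high for Cd3g, Cd8a and Cd8b1.

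The CD3 chains were near the detection limit. Cd3d, Cd3e and Cd3g lie together on chromosome 9 of GRCm38, with Cd3d on the plus strand at chr9:44981786-44987339, Cd3g on the minus strand at chr9:44969572-44980431 and Cd3e on the minus strand at chr9:44998740-45009627. Cd3g and Cd3d start 1355 bases apart and are transcribed away from each other. The 250 bases before each start, from RefSeq (GRCm38.p6), are shown because these 3 neighbours had unlike values below. Capitals mark any match on either strand to 4 motifs of factors at work in T cells, which are the ETS letters GGAAGT, the RUNX letters TGTGGT, the GATA letters AGATAA and the E-box letters CAGCTG.

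Cd3g, minus strand, chr9:44980432-44980681: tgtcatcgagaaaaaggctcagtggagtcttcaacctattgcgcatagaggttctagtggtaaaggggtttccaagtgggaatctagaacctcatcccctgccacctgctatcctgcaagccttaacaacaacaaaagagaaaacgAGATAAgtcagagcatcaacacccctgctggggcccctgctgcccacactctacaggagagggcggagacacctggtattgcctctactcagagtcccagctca
Cd3d, plus strand, chr9:44981536-44981785: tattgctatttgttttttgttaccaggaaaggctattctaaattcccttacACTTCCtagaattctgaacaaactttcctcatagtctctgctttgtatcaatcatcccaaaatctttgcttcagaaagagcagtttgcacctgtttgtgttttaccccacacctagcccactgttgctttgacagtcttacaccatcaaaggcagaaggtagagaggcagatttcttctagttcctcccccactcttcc
Cd3e, minus strand, chr9:45009612-45009861: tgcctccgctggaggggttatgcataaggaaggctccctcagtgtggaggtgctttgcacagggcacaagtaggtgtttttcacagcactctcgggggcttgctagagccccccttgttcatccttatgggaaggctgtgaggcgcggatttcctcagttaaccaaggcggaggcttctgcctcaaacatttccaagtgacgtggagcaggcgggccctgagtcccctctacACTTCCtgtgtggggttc

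Cd3g held the GATA letters at base 147, and Cd3d and Cd3e held the ETS letters on the other strand at bases 52 and 233, counted from 1 at the 5′ end. Over 32851 RefSeq windows of the same length, 19.7% held the ETS letters, 14% the RUNX letters, 9.99% the GATA letters and 13% the E-box letters. A match is a run of letters and does not show that a factor binds there. RefSeq windows were found for 7 of the 10 members.

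Cd3g showed the clearest difference among the members. Its reads ran from 0 to 2 in intact libraries (median 1, 5 reads in all), from 0 to 8 in AAV-GFP (median 3.5, 23 reads) and from 1 to 16 in AAV-SIRT3 (median 4, 36 reads). AAV-SIRT3 replicate 6 held 16 of the 36 reads, and the other 5 AAV-SIRT3 libraries reached 8 at most. The mean (± SD over 6 mice) was 0.862 ± 0.841 normalised reads for intact mice, 3.80 ± 3.00 for AAV-GFP and 6.19 ± 6.17 for AAV-SIRT3.

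AAV-SIRT3 exceeded intact for Cd3g in 35 of 36 pairs of libraries, with an exact two-sided permutation p of 0.00433, where the smallest possible is 0.00216. AAV-GFP exceeded intact in 28 of 36 pairs (exact permutation p = 0.0541), and without AAV-GFP replicate 2, 3 or 6 the exact permutation p was 0.0346, 0.0476 and 0.00649. AAV-SIRT3 and AAV-GFP gave 21 and 15 pairs in either direction (exact permutation p = 0.494), and their difference of 2.40 normalised reads was smaller than either SD. These are 3 of 30 such tests, unadjusted, of which 2 fell under 0.05. The share of all genes under 0.05 in the permutation test is not given here, so that count has no baseline beside it. Without AAV-SIRT3 replicate 6 the excess over intact shrank from 5.33 to 2.97 normalised reads, with an exact permutation p of 0.00649.

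Cd3g lay below the filter of the test across genes. edgeR fitted to all 38540 genes with a read gave it a log2 fold change of 2.71 in AAV-SIRT3 against intact (adjusted p = 0.0301). In that comparison the other member it called was Cd4. The edgeR call of Cd3g was lost without AAV-SIRT3 replicate 6 (log2 fold change 2.05, adjusted p = 0.149), without AAV-SIRT3 replicate 3 (adjusted p = 0.0557), and without intact replicate 2, 3, 4 or 6 (adjusted p = 0.0678, 0.0525, 0.0529 and 0.0618). limma without the filter gave 1.71 (adjusted p = 0.0567).

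Cd3d, the neighbour of Cd3g, had 8 reads over all intact mice, 8 over the AAV-GFP and 13 over the AAV-SIRT3 mice. It was at 0 reads in 2, 4 and 1 of the 6 libraries, and its highest libraries held 5, 6 and 6 reads. A library at 0 allows up to 3 reads at its depth, counting error only. The exact permutation test found no difference for Cd3d (exact permutation p = 1.00, 0.424 and 0.502 for AAV-GFP against intact, AAV-SIRT3 against intact and AAV-SIRT3 against AAV-GFP).

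Cd3e was the most abundant CD3 chain. Its normalised reads were 0.977 to 12.8 in intact (median 9.67), 6.35 to 20.4 in AAV-GFP (median 13.6) and 3.81 to 21.8 in AAV-SIRT3 libraries (median 12.2). Intact replicates 3 and 6 were low, and 4 of the 6 intact libraries lay within the range of both AAV groups. The log2 difference was 1.04 (SE 0.518, 95% interval -0.037 to 2.11, limma adjusted p = 0.280) in AAV-GFP against intact and 0.86 (interval -0.22 to 1.93, adjusted p = 0.249) in AAV-SIRT3 against intact. AAV-SIRT3 differed from AAV-GFP by -0.18 (interval -1.26 to 0.89, adjusted p = 0.903). Over 29 alternatives the difference of AAV-GFP from intact ran from 0.43 to 1.39, and the adjusted p, which DESeq2 did not give, was 0.205 or more. The exact permutation p was 0.0952, and 0.0433 without AAV-GFP replicate 1. Cd3e overlaps the antisense gene Gm48719, which had at most 4.995 normalised reads.

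Trbc2 encodes a constant region of the T cell receptor beta chain and gave 60.5% of the summed normalised reads of the 8 members other than Ptprc and Cd4. Constant region transcripts of the beta locus have been described in mouse neurons. Trbc2 lies at chr6:41546730-41548352 on the plus strand, and its near-identical neighbour Trbc1 had 0 to 10.03 normalised reads, so how reads were shared between them is uncertain. Its normalised reads were 18.3 to 62.5 in intact (median 36.2), 28.0 to 70.7 in AAV-GFP (median 48.0) and 35.2 to 81.0 in AAV-SIRT3 libraries (median 57.9).

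The 3 ranges of Trbc2 overlapped for most libraries, with the highest value in AAV-SIRT3 replicate 6. The log2 difference was 0.25 (interval -0.36 to 0.85, limma adjusted p = 0.693) in AAV-GFP against intact, 0.51 (interval -0.094 to 1.11, adjusted p = 0.222) in AAV-SIRT3 against intact and 0.26 (interval -0.34 to 0.87, adjusted p = 0.710) in AAV-SIRT3 against AAV-GFP. T cell receptor variable segments are joined to the constant regions only after rearrangement. Here they were summed over the alpha, beta, gamma and delta loci together, while Trbc2 belongs to the beta locus alone. They gave 20.8 to 40.3 normalised reads in intact, 25.5 to 46.5 in AAV-GFP and 20.97 to 36.7 in AAV-SIRT3 libraries. These sums run over 178 segments, of which 54 had a read, and their medians of 30.6, 27.8 and 24.3 did not follow the order of Trbc2.

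**Figure D2:**
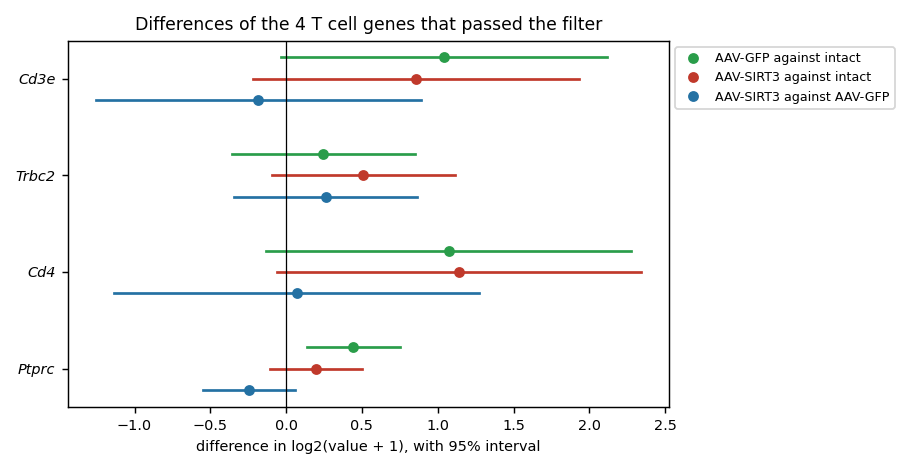
Difference in log2(value + 1) with its 95% interval (horizontal axis) for the 4 genes that passed the filter on low values, in 3 colours for the 3 comparisons. Only the interval of Ptprc in AAV-GFP against intact, 0.14 to 0.75, lies wholly above 0.

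The CD8 co-receptor chains were rare outside a few AAV-SIRT3 libraries. Cd8a (chr6:71373427-71379173) had 0 to 4 reads in intact (median 1, 7 reads in all), 0 to 4 in AAV-GFP (median 2.5, 13 reads) and 0 to 19 in AAV-SIRT3 libraries (median 5.5, 39 reads). AAV-SIRT3 replicate 4 held 19 of the 39 reads, while AAV-SIRT3 replicate 5 held 0, so the groups overlapped. AAV-SIRT3 exceeded intact in 26 of 36 pairs (exact permutation p = 0.0866) and exceeded AAV-GFP in 25 of 36 (exact permutation p = 0.152). Without AAV-SIRT3 replicate 4 the excess over intact fell from 5.32 to 2.86 normalised reads. Leaving out AAV-SIRT3 replicate 1 or 5 gave exact permutation p of 0.0411 and 0.0216 against intact, and leaving out replicate 5 gave 0.0368 against AAV-GFP. edgeR without the filter missed Cd8a (adjusted p = 0.0790) and passed it without intact replicate 6 or AAV-SIRT3 replicate 5 (adjusted p = 0.0299 and 0.0433).

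Cd8b1 (chr6:71322788-71337494), which encodes the partner chain of CD8 alpha, had 2 reads over all intact mice, 2 over the AAV-GFP and 14 over the AAV-SIRT3 mice. It was at 0 in 5, 4 and 2 of the 6 libraries, and AAV-SIRT3 replicate 6 alone held 9 of the 14 reads. Per unit of depth the AAV-SIRT3 total was 7.05 times the intact total, with an exact 95% counting interval of 1.62 to 63.9 that leaves out the spread between mice. Over mice the exact permutation p was 0.152, and without AAV-SIRT3 replicate 6 the excess over intact fell from 2.20 to 0.674 normalised reads. edgeR without the filter missed Cd8b1 (adjusted p = 0.166) and passed it without intact replicate 2 (adjusted p = 0.0457).

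Cd4 was high in 4 AAV libraries. Its normalised reads were 9.77 to 34.2 in intact (median 17.9), 11.6 to 123.4 in AAV-GFP (median 38.8) and 15.6 to 140.8 in AAV-SIRT3 libraries (median 29.6). AAV-GFP replicates 4 and 5 (123.4 and 97.6) and AAV-SIRT3 replicates 4 and 5 (108.1 and 140.8) were high, and the other AAV libraries overlapped the intact range or lay, as AAV-GFP replicate 3 did, at 52.1 at most. The log2 difference from intact was 1.07 (SE 0.579, interval -0.13 to 2.27, limma adjusted p = 0.323) in AAV-GFP and 1.14 (interval -0.060 to 2.34, adjusted p = 0.166) in AAV-SIRT3. AAV-SIRT3 differed from AAV-GFP by 0.069 (interval -1.13 to 1.27, adjusted p = 0.969). The exact permutation p against intact was 0.119 for AAV-GFP and 0.126 for AAV-SIRT3, and leaving out replicate 1 or 2 gave 0.0325 and 0.0411 for AAV-GFP and 0.0455 and 0.0368 for AAV-SIRT3.

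The libraries with much Cd4 were those with much RNA of striatal neuron genes. Adora2a, the adenosine receptor of striatopallidal neurons, stood at 827.2 and 576.0 normalised reads in AAV-GFP replicates 4 and 5 and at 423.6 and 692.4 in AAV-SIRT3 replicates 4 and 5. The remaining 14 libraries lay between 50.3 and 285.7, and AAV-GFP replicate 3 was the highest of these in both Adora2a and Cd4. The dopamine receptor gene Drd1 stood at 528.8 to 754.7 in the same 4 libraries. Over all 18 libraries the rank (Spearman) correlation with Cd4 was 0.67 for Adora2a and 0.60 for Drd1. A score of 12 striatal genes, their mean log2 value relative to intact, ran from -0.17 to 0.18 in intact, from -0.11 to 1.00 in AAV-GFP and from -0.22 to 1.07 in AAV-SIRT3 libraries. The rank correlation of this score with Cd4 was 0.57. With this score as a covariate, an alternative chosen after seeing the data, the Cd4 difference from intact was 0.27 in AAV-GFP (limma adjusted p = 0.715) and 0.48 in AAV-SIRT3 (adjusted p = 0.338). Because of that choice the fit cannot show the part of striatal RNA in the Cd4 difference, which was not tested.

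edgeR without the filter called Cd4 in AAV-SIRT3 against intact (log2 fold change 1.57, adjusted p = 0.0458), and with the filter it did not (adjusted p = 0.0711). The call was lost without AAV-SIRT3 replicate 4 (1.28, adjusted p = 0.124) or 5 (1.07, adjusted p = 0.214) and without intact replicate 2, 3, 4 or 6. The 8 genes most like Cd4 in rank over the 18 libraries, by Spearman correlation, were Gm49593 (0.81), Gcnt2 (0.77), Asb11 (0.76), Ribc2 (0.76), Lrrc10b (0.74), Cap1 (0.72), Ido1 (0.72) and Ppp3ca (0.72). With group means removed, Lrrc10b had the highest value of these, 0.91.

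**Figure D3:**
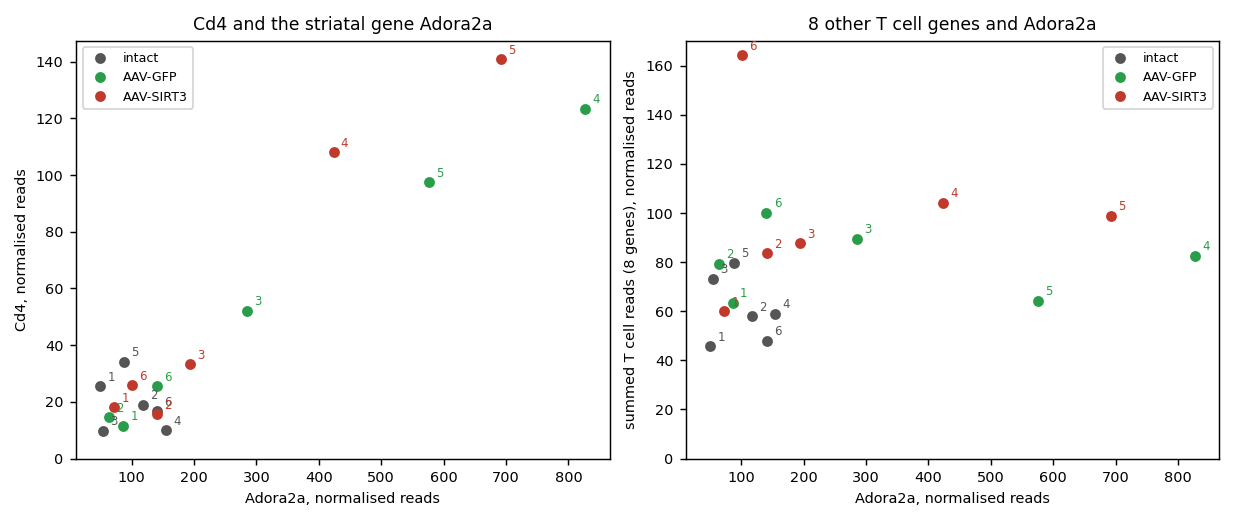
Left, Cd4 against Adora2a, and right, the summed normalised reads of the 8 members other than Cd4 and Ptprc against Adora2a, with 1 point for each of 18 libraries and its replicate number. The 4 libraries highest in Adora2a (423.6 or more) are the 4 highest in Cd4 (97.6 or more), while the highest library of the sum, AAV-SIRT3 replicate 6 at 164.3, has 101.3 normalised reads of Adora2a.

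The effector and homing genes were low and did not separate the groups. Nkg7, a cytotoxic granule membrane gene at chr7:43437073-43438249, had 0 to 4 reads in intact (8 in all), 0 to 7 in AAV-GFP (15 in all) and 0 to 9 in AAV-SIRT3 libraries (24 in all). AAV-SIRT3 replicates 4 and 6 held 8 and 9 reads, and each group had at least 1 library at 0. AAV-SIRT3 exceeded intact in 25 of 36 pairs (exact permutation p = 0.162) and AAV-GFP exceeded intact in 22 of 36 (exact permutation p = 0.333).

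Cxcr6 (chr9:123806475-123811760), the receptor for the chemokine CXCL16, was detected in all 18 libraries. Its reads ran from 4 to 12 in intact (median 7), from 5 to 16 in AAV-GFP (median 8) and from 1 to 16 in AAV-SIRT3 libraries (median 9). The totals of 45, 52 and 52 reads were close, and AAV-SIRT3 held both the lowest and the joint highest library (exact permutation p = 0.524, 0.591 and 0.929 for AAV-GFP against intact, AAV-SIRT3 against intact and AAV-SIRT3 against AAV-GFP). Cxcr6 lies within Fyco1, a gene on the opposite strand with 3049 to 4248 normalised reads. The libraries were stranded, but whether the counting used strand is not given in the sources used here, so the Cxcr6 reads cannot be told apart from reads of Fyco1.

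Ptprc was the member with the most reads. Its normalised reads were 184.8 to 258.9 in intact (median 216.6), 184.6 to 375.7 in AAV-GFP (median 331.6) and 203.2 to 324.1 in AAV-SIRT3 libraries (median 244.7). In AAV-GFP 5 of the 6 libraries lay above all intact libraries and AAV-GFP replicate 6 was the lowest of the 18. The mean (± SD over 6 mice) was 219.9 ± 26.3 for intact mice, 305.7 ± 70.6 for AAV-GFP and 254.0 ± 43.5 for AAV-SIRT3.

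AAV-GFP differed from intact for Ptprc by a log2 difference of 0.44 (SE 0.147, interval 0.14 to 0.75), a 1.36-fold excess with a limma adjusted p of 0.104 and an unadjusted limma p of 0.00628. AAV-GFP was higher in 30 of 36 pairs (exact permutation p = 0.0281). The result turned on AAV-GFP replicate 6. Without it the log2 difference was 0.58 and passed (limma adjusted p = 0.0203), and the exact permutation p, now over 5 against 6 libraries, was 0.00216. Without AAV-GFP replicate 1, 3, 4 or 5 the exact permutation p lay between 0.0519 and 0.0541. DESeq2 gave 0.47 (adjusted p = 0.0262) and edgeR 0.47 (adjusted p = 0.0872), and the lowest and highest adjusted p over 30 alternatives were 0.0203 and 0.260.

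AAV-SIRT3 differed from intact for Ptprc by 0.20 (interval -0.11 to 0.50, limma adjusted p = 0.353), and by 0.36 (adjusted p = 0.234) with a score of 7 thalamic genes as a covariate. AAV-SIRT3 differed from AAV-GFP by -0.24 (interval -0.55 to 0.059, adjusted p = 0.435). The exact permutation p was 0.132 against intact, and 0.0498 without AAV-SIRT3 replicate 5. Against AAV-GFP it was 0.162, and 0.0216 without AAV-GFP replicate 6. Ptprc (chr1:138062861-138175708) overlaps A130071D04Rik, which had at most 2.15 normalised reads.

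Microglial markers moved with Ptprc. Of 15 markers tested, 7 rose and 0 fell in AAV-GFP against intact, with a median log2 difference of 0.32 beside 0.00074 over all genes tested. In AAV-SIRT3 against intact 8 rose and 0 fell (median 0.25 beside -0.0049), and in AAV-SIRT3 against AAV-GFP 0 rose (median -0.081 beside -0.0041). The complement genes C1qa and C1qc rose by 0.61 and 0.48 in AAV-GFP and by 0.52 and 0.41 in AAV-SIRT3 (limma adjusted p of 0.00436, 0.00297, 0.00169 and 0.00137), and Aif1, which encodes the microglial protein IBA1, rose by 0.47 and 0.49. AAV-GFP replicate 6, the lowest library in Ptprc, had the lowest microglial score of its group, 0.10, where the other AAV-GFP libraries had scores up to 0.44. The part of microglial RNA in the Ptprc difference was not tested.

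**Figure D4:**
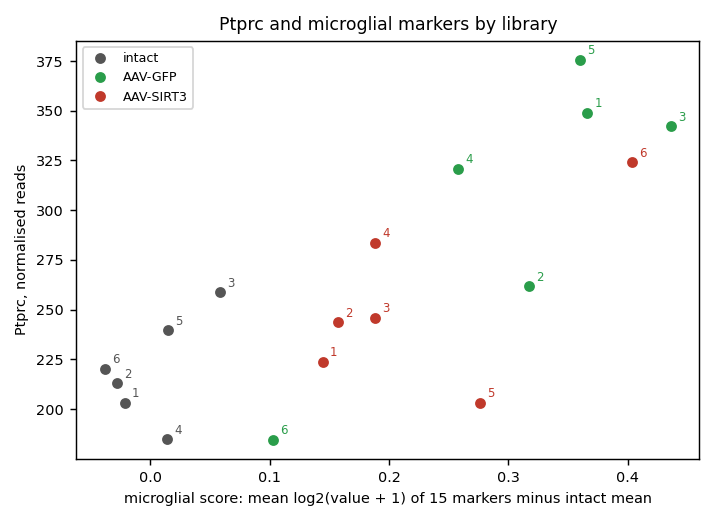
Normalised reads of Ptprc (vertical axis) against the microglial score, the mean log2(value + 1) of 15 markers minus the intact mean (horizontal axis), with 1 point for each of 18 libraries and its replicate number. The 6 intact libraries lie at scores of at most 0.058 and the 12 AAV libraries at 0.10 or above.

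The highest library differed between members. AAV-SIRT3 replicate 6 was the highest of the 18 for 5 members, Cd3g, Cd8b1, Trbc2, Nkg7 and Cxcr6. AAV-SIRT3 replicate 4 was the highest for Cd3e and Cd8a, AAV-SIRT3 replicate 5 for Cd3d and Cd4, and AAV-GFP replicate 5 for Ptprc. The 6 members below the filter together gave 9.77 to 14.6 normalised reads in intact, 10.2 to 27.5 in AAV-GFP and 8.57 to 66.4 in AAV-SIRT3 libraries. The 2 highest libraries were AAV-SIRT3 replicates 6 and 4, at 66.4 and 43.7, and AAV-SIRT3 replicate 1 was the lowest of all 18.

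**Figure D5:**
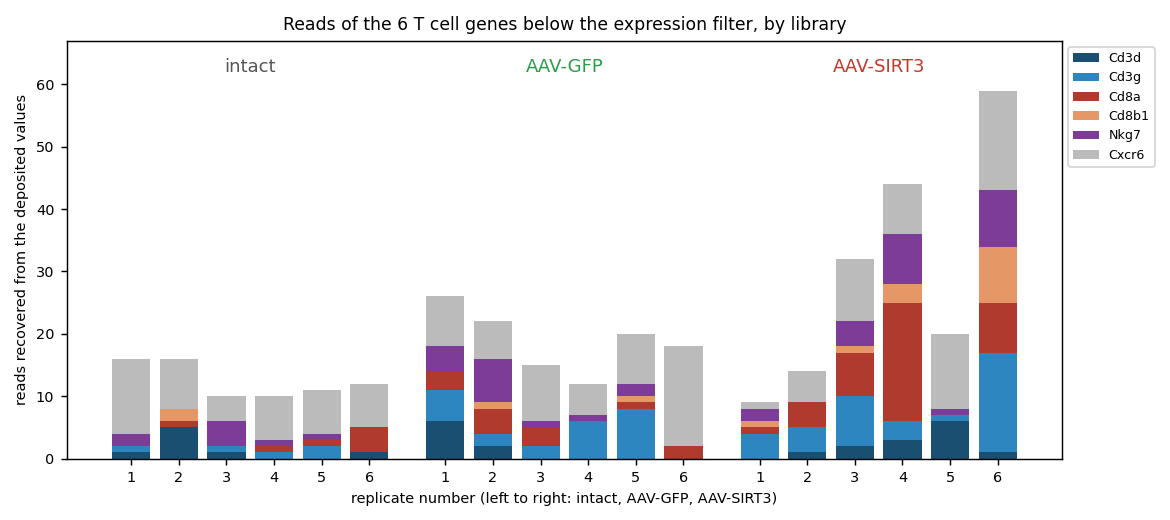
Reads recovered for the 6 genes below the expression filter (stacked bars, vertical axis) in each of 18 libraries, by replicate number and group (horizontal axis). The tallest bars are AAV-SIRT3 replicates 6 and 4, and AAV-SIRT3 replicate 1 has 9 reads in all.

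Over the 8 members without Ptprc and Cd4, the summed normalised reads ran from 45.7 to 79.9 in intact (median 58.5), from 63.5 to 100.2 in AAV-GFP (median 80.9) and from 60.0 to 164.3 in AAV-SIRT3 libraries (median 93.3). AAV-SIRT3 replicate 6 stood at 164.3 and the next AAV-SIRT3 library at 104.2, and each pair of groups overlapped. The 8 genes most like this sum in rank over the 18 libraries, by Spearman correlation, were Rnf10 (0.84), Rasl10b (0.83), Gm17922 (0.82), Samd1 (0.82), Eri3 (0.81), Maskbp3 (0.81), Dmwd (0.81) and Gm42970 (0.81). With group means removed these values ran from 0.50 for Gm17922 to 0.83 for Gm42970. The points share depth and normalisation, and 19443 genes were searched.

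AAV-SIRT3 replicate 6 also stood apart in genes of other blood cells. Igkc, the kappa light chain of antibodies, had 5349 normalised reads there and at most 864.8 in the other 17 libraries. Ly6c2, a monocyte marker, had 207.0 there and at most 16.9 elsewhere. The chemokine genes Cxcl9 and Cxcl10, whose products attract T cells, had 67.5 and 156.4 there and at most 23.8 and 94.2 elsewhere. Haemoglobin and other erythrocyte genes did not mark this library, with a sum of 90.0 normalised reads in a range of 61.9 to 599.9 over the AAV-SIRT3 libraries. The part of these cells in the high values of that library was not tested.

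Few of the other genes of the T cell receptor complex and its signalling passed the test. Of 24 such genes 11 could be tested, and 0 changed in AAV-GFP against intact, 1 rose and 0 fell in AAV-SIRT3 against intact, and 0 changed in AAV-SIRT3 against AAV-GFP. Their median log2 differences were 0.19, 0.15 and 0.11. At the unadjusted threshold of 0.05, limma gave 1, 2 and 0 of the 11. The gene that rose was Sh2d1a, which encodes the adaptor SAP, from 1.998 to 14.5 normalised reads in intact to 10.1 to 23.7 in AAV-SIRT3 libraries (log2 difference 1.40, SE 0.480, limma adjusted p = 0.0410). The 2 ranges overlapped.

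Some genes of this list were far above the CD3 chains in every group. Trac, the constant region of the T cell receptor alpha chain, had 146.9 to 206.8 normalised reads in intact, 177.0 to 277.7 in AAV-GFP and 152.7 to 186.8 in AAV-SIRT3 libraries. Zap70, the kinase that binds the phosphorylated CD3 chains, had 97.9 to 281.0, 157.6 to 280.9 and 209.5 to 278.4. Cd2 and Themis, which are T cell markers, were as low as the CD3 chains, at up to 6.84, 6.38 and 16.9 normalised reads for Cd2 and up to 3.996, 2.12 and 12.4 for Themis. AAV-SIRT3 replicate 6 was the highest library for both.

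Cytotoxic genes gave little signal. Of 16 cytotoxic and natural killer cell genes 5 could be tested, with 0 past the threshold in AAV-GFP against intact, 1 higher and 0 lower in AAV-SIRT3 against intact and 0 in AAV-SIRT3 against AAV-GFP (median log2 differences 0.34, -0.0038 and 0.026). At an unadjusted limma p under 0.05 there were 2 in each comparison. The gene that rose was Ccl5, a chemokine of cytotoxic T cells and other leukocytes, by 2.28 on the log2 scale (interval 1.24 to 3.32, limma adjusted p = 0.00348). Its normalised reads were 0.915 to 9.13 in intact, 4.23 to 10.9 in AAV-GFP and 8.57 to 64.1 in AAV-SIRT3 libraries, where replicates 6 and 3 were the highest. Gzma, Gzmb and Prf1, the granule proteins that kill target cells, had 2, 5 and 3 reads in all intact libraries together, 1, 5 and 1 in AAV-GFP and 3, 15 and 5 in AAV-SIRT3. Ifng had 1, 1 and 4. Gzmk, which could be tested, went the other way, with a log2 difference of -0.93 in AAV-SIRT3 against intact (interval -1.75 to -0.12). It stood at -0.16 in AAV-GFP against intact and at -0.78 in AAV-SIRT3 against AAV-GFP. Ctsw stood at 0.97 in AAV-GFP against intact, at -0.0038 in AAV-SIRT3 against intact and at -0.98 in AAV-SIRT3 against AAV-GFP. Neither Gzmk nor Ctsw passed the threshold in any comparison.

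Ccl3, a chemokine made by microglia and other myeloid cells, rose with both viruses. Of 15 chemokine ligand and endothelial adhesion genes 9 could be tested. In AAV-GFP against intact 1 rose, Ccl3 by 1.46 (limma adjusted p = 0.0206), and in AAV-SIRT3 against intact 3 rose, Cxcl10 by 1.75 (adjusted p = 0.0184), Ccl12 by 1.32 (adjusted p = 0.0194) and Ccl3 by 1.21 (adjusted p = 0.00916). None fell, 0 changed in AAV-SIRT3 against AAV-GFP with 4 at an unadjusted limma p under 0.05, and the medians were 0.35, 0.11 and -0.22.

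Homing receptors and residency genes were tested for 12 of 17. In AAV-GFP against intact the integrin beta chain Itgb2 rose by 0.49 and Cd52 by 0.72 (limma adjusted p = 0.0171 and 0.0331). In AAV-SIRT3 against intact Cd52 rose by 0.68 and Selplg by 0.16, while the integrin alpha chain Itga4 fell by 0.52 (adjusted p = 0.00746, 0.0490 and 0.00202). Microglia also express Itgb2 and Selplg. In AAV-SIRT3 against AAV-GFP 0 of the 12 passed, with 3 at an unadjusted limma p under 0.05, and the medians of the list were 0.052, 0.071 and -0.11.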

How the data were processed

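Groups and replicate numbers came from the sample titles, and all 18 columns matched a sample, leaving 0 unmatched columns. The unit of the deposited table is a normalised signal, which per the name of the deposited table is an HTSeq read count normalised with DESeq2. HISAT2 2.1.0, DESeq2 1.34.0 and mm10 are named in the submitters' processing notes, and annotation and strand setting are not given in the sources used here. Whole reads were recovered for 100% of values (tolerance 1e-06), which is a weak check for intact and AAV-SIRT3 replicate 4, whose size factors were near 1. The 19443 genes that reached 10 normalised reads in 6 or more libraries were tested on log2(value + 1) with limma 3.58.1 (R 4.3.3, 3 groups in 1 fit, 15 residual df), adjusted by Benjamini-Hochberg with a threshold of 0.05, and the procedure was tested on simulated data. That scale understates the change of low genes. For the members, group means of the normalised values were compared by exact permutation over samples (two-sided), 30 tests without adjustment. Alternatives were TMM factors, pseudocounts of 0.5 and 10, other filters, edgeR 4.0.16, DESeq2 1.42.0, fits of 2 groups, thalamus and striatum covariates, a replicate block and leaving out each library. The members and all gene lists were chosen with earlier results of these data known. Named genes are the members, list genes past the threshold and the 8 genes most like the summed reads. For each list and comparison at most the 4 list genes with the smallest p are named. Sirt3, Th, Aif1, P2ry12 and Prkcd are named in any case where a result touches them. Outside this rule, Adora2a, Drd1, Trac, Trbc1, Zap70, Cd2, Themis, Gzma, Gzmb, Prf1 and Ifng, the genes most like Cd4, the genes that overlap a member and those named for AAV-SIRT3 replicate 6 were chosen after their values were seen. Gzmk, Ctsw, S100a8 and S100a9 were also named after their values were seen. Positions are from GENCODE M21 (GRCm38, the same build as mm10). Floors and counting intervals cover counting error only, as reads carry no molecular identifiers. Some list genes past the threshold are not reported here.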

Additional observations from a re-analysis of the deposited data

Results flagged for a closer look

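Single libraries stood far from the rest of their group of 6 in 5 of 33 sets of values by the size of the gap to the next library relative to the range (Dixon), where chance gives about 1 in 20. All 5 are sets of few reads, in which a gap can be a few reads. Cd3d had 4.53 normalised reads in intact replicate 2, with 1.04 in the next library, and 6.35 in AAV-GFP replicate 1, with 1.82 in the next. Cd8a had 4.17 in intact replicate 6, with 1.14 in the next. Cd8b1 had 1.81 in intact replicate 2, where the other 5 intact libraries were at 0. It had 10.1 in AAV-SIRT3 replicate 6, with 2.98 in the next.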

How the results depend on the processing

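The count of members past the threshold was 0 in each comparison with limma. It was 1 in AAV-GFP against intact (Ptprc) with DESeq2 and without AAV-GFP replicate 6, and 2 in AAV-SIRT3 against intact (Cd3g and Cd4) with edgeR on all genes with a read. With 1 library left out it ran from 0 to 1 in the first comparison and was 0 in the others, and with a replicate block it was 0 in all 3. Replicate numbers did not pair the libraries: over 18 same-number pairs the correlation of deviations ran from -0.095 to 0.18, and 1 of 18 libraries was closest to its own number. The ratio of the medians of the summed T cell reads in AAV-SIRT3 against AAV-GFP was 1.15, and 0.892 when all 10 members were summed, Ptprc included. With 1 library left out, the log2 difference of AAV-SIRT3 from AAV-GFP ran from -0.37 to 0.076 for Cd3e and from -0.29 to 0.41 for Cd4. The difference in mean normalised reads changed sign in 7 cases. In AAV-GFP against intact it ran from -0.880 to 0.775 for Cd3d, from -0.120 to 0.325 for Cd8b1 and from -0.0654 to 2.23 for Cxcr6. In AAV-SIRT3 against intact it ran from -0.221 to 3.19 for Cxcr6. In AAV-SIRT3 against AAV-GFP it ran from -2.63 to 0.978 for Cd3e, from -13.9 to 16.7 for Cd4 and from -1.55 to 1.86 for Cxcr6. Over all genes, the 358 calls of AAV-GFP against intact became 1000 with DESeq2, 199 with 2 groups in the fit, 164 without a filter, 32 with the thalamus covariate and 129 to 686 with 1 library left out (without intact replicate 3 and AAV-GFP replicate 1). The 4214 of AAV-SIRT3 against intact became 1378 with the thalamus covariate. The 22 of AAV-SIRT3 against AAV-GFP became 304 with DESeq2, 8 with 2 groups, 69 with edgeR on all genes with a read, 13 with the block and 5 to 861 with 1 library left out (without AAV-SIRT3 replicate 5 and AAV-GFP replicate 2). The cause of these changes was not tested. At this depth, 6 of the 10 members had too few reads for the test across genes.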

Other observations

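Markers of other blood cells and of tissue next to the substantia nigra gave the following values. Dendritic cell markers had 1 gene higher of 5 tested in both AAV groups against intact, Itgax, by 2.80 in AAV-GFP (limma adjusted p = 0.00131) and by 1.23 in AAV-SIRT3 (adjusted p = 0.0281), and microglia express it too. Neutrophil markers had 1 higher of 3 tested in both, Csf3r, by 0.61 and 0.34. S100a8 and S100a9 did not pass, at 0.18 and 0.68 in AAV-GFP against intact (limma adjusted p = 0.921 and 0.580). In AAV-SIRT3 against intact they stood at 0.40 and 0.30 (limma adjusted p = 0.725 and 0.766). Border macrophage and monocyte markers had 0 of 6 past the threshold in AAV-GFP and 1 lower in AAV-SIRT3, Fn1, which fell by 0.59. B and plasma cell markers had 0 of 5 past the threshold in each comparison, with 1 at an unadjusted limma p under 0.05 in each, and erythrocyte markers had 0 of 4, with 0, 1 and 0 unadjusted. None of these lists, and none of the thalamic, choroid plexus, pituitary or dopaminergic genes, passed in AAV-SIRT3 against AAV-GFP.

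Of 7 thalamic markers 1 rose in AAV-GFP against intact, Lef1 by 0.72, and 6 in AAV-SIRT3, among them Tcf7l2 by 0.65 and Prkcd by 0.69. At an unadjusted limma p under 0.05 there were 6 of the 7 in both comparisons and 1 in AAV-SIRT3 against AAV-GFP, with list medians of 0.53, 0.65 and 0.031. Of 7 choroid plexus and pituitary markers 3 fell in AAV-GFP and 5 in AAV-SIRT3, among them Pomc, which fell by 2.65 and 2.61. Of 8 dopaminergic markers 1 fell in AAV-GFP, Slc6a3, which encodes the dopamine transporter and fell by 0.44, and 0 passed in AAV-SIRT3. Th did not pass, at -0.28 in AAV-GFP and 0.017 in AAV-SIRT3 against intact (limma adjusted p = 0.0755 and 0.908). It stood at 0.30 in AAV-SIRT3 against AAV-GFP (limma adjusted p = 0.122). Unadjusted, limma gave 6, 0 and 3 of the 8 in the 3 comparisons, with list medians of -0.28, -0.077 and 0.20, and for the choroid plexus and pituitary markers 3, 5 and 0 of the 7, with medians of -0.77, -2.25 and -0.94. Of 12 striatal genes 0 passed in any comparison, with 3, 1 and 1 at an unadjusted limma p under 0.05.

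Immunoglobulin variable segments, summed over 346 segments of which 79 had a read, ran from 4.53 to 333.1 normalised reads in intact, from 2.55 to 45.3 in AAV-GFP and from 1.08 to 2977 in AAV-SIRT3 libraries. The segment Igkv12-46 gave 54.6% of these reads. The highest library of each group was intact replicate 5, AAV-GFP replicate 3 and AAV-SIRT3 replicate 6. The second highest AAV-SIRT3 library, at 529.6 normalised reads, also lay above every intact library.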
